A study of Homo sapiens with 3 samples.

Results

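The heat shock and J-domain protein genes are the cell's main set of molecular chaperones and their helpers. Members were taken by symbol: every gene whose symbol begins with DNAJA, DNAJB, DNAJC, HSPA, HSPB, HSPH, HSP90A, HSPD or HSPE, without pseudogenes, antisense and read-through genes and without the endoplasmic reticulum (ER) genes HSPA5 and DNAJB9. This gave 62 genes of the 18331 gene identifiers listed in any library. By class they were 11 HSP70 genes, 3 HSP110 exchange factors, 2 HSP90 genes, 2 mitochondrial chaperonin genes, 3 small heat shock protein genes and 41 J-protein genes (4 of type A, 10 of type B and 27 of type C). The set is not cytosolic throughout: from textbook knowledge, 9 members act in mitochondria and 11 in or at the ER, which left 42 in the cytosol and elsewhere. DNAJB8, DNAJC5B, HSPB2, HSPB3, HSPB7 and HSPB9 also pass the rule on symbols, but no library listed them.

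The libraries come from cultured PC-3 cells, a long-established line from a human prostate tumour. The first group is 2 libraries, labelled KMT2D shRNA 1 and 2, of cells that carry lentivirus with a short hairpin RNA (shRNA) against KMT2D, a histone methyltransferase of enhancers. The other is 1 library of cells that carry a control shRNA. All were collected 7 days after infection and sequenced on a BGISEQ-500 as polyadenylated RNA. The labels do not say whether the numbers 1 and 2 stand for different hairpins or for separate cultures, and the labels also give the first group as KMT2D deficient.

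KMT2D RNA, which checks the labels, was not lower in the libraries labelled KMT2D shRNA. It had 107 and 138 CPM (counts relative to the scaled library total) in the libraries labelled KMT2D shRNA, against 100.1 CPM in the control library, and the log2 fold change of 0.29 did not pass (SE 0.18, adjusted p = 0.227 in edgeR). With the length trend described below removed, it turned to -0.64 and did not pass either (adjusted p = 0.0504 in edgeR). Directions below are therefore those of the labelled libraries and not of a measured loss of KMT2D. Library totals ran from 5123817 to 5559504 estimated counts. The 5 keratin and adhesion markers of PC-3 epithelium were above 1 FPKM (fragments relative to transcript length and library total) in every library, with summed levels of 538 and 553 FPKM in the libraries labelled KMT2D shRNA and 907 FPKM in the control. KRT8, KRT18, KRT19 and EPCAM were lower in both labelled libraries, and the keratins made up most of the sum. CDH1 went the other way, with 3.73 and 3.78 FPKM in the labelled libraries and 2.57 FPKM in the control. The prostate genes KLK3 and KLK2 and the lymphocyte marker CD3E were at 0 counts in every library. The word retinal stands in the design text; of 7 retina markers 2 were at 0 counts in every library, RCVRN among them, and the 7 summed to 8.03 and 7.14 FPKM in the labelled libraries and 7.83 FPKM in the control, with CRX, PDE6B, RPE65 and OPN1SW detected in each. The 6 leukocyte markers summed to 41.3 and 44.6 FPKM in the labelled libraries and 102 FPKM in the control, mostly CD68 and LYZ, and the 5 fibroblast markers, mostly COL1A1, to 65.9 and 66.5 FPKM in the labelled libraries and 67.8 FPKM in the control. The part of these marker differences in the results below was not tested.

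Chaperones of the HSP70 family bind exposed hydrophobic stretches of unfolded proteins and release them in a cycle driven by ATP. J proteins deliver the clients and switch on ATP hydrolysis, HSP110 proteins exchange the nucleotide, HSP90 finishes the folding of kinases and steroid receptors, and small heat shock proteins hold aggregation-prone proteins without ATP. Heat shock factor 1 (HSF1) raises many of these genes under stress through inverted repeats of a short motif in their promoters, and cancer cells often keep chaperones at a high basal level.

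The inverted repeats were searched in the promoters of the members. RefSeq promoter windows of 300 bases on GRCh38.p14, mostly upstream of the gene start, were matched for 57 of 62 members. A pair of repeat units (GAANNTTC or TTCNNGAA, either strand) stood in 13 of the 57 member promoters, 22.8%, against 13.7% of all 27303 promoters in the table. Runs of 3 units, GAA and TTC in turn with 2 free bases between units, contain such pairs and stood in 4 member promoters, 7.02%, against 0.487% of all promoters. These 4 were the promoters of HSPA8, HSPA6, DNAJA1 and DNAJB6. The CCAAT box (CCAAT or ATTGG) was in 38.6% of member promoters and 35.7% of all. Of the 15 members that passed the expression test below, HSPA1B, HSPB1 and DNAJA1 had a pair of units, and DNAJC1 had no matched window to search. Beside this, 10 of 51 promoters of tested members had one, 19.6%, and 10.0% of promoters of all tested genes. HSPA1B, HSPB1 and DNAJA1 passed as lower, and none of them passed with the length trend described below removed. The windows of HSPH1, DNAJB1 and HSP90AA1, which are also known as stress-inducible, held none. A match is only a stretch of letters and was not tested for binding. Shown here are the promoters of the inducible twins HSPA1A (chr6:31815293-31815592, plus strand) and HSPA1B (chr6:31827488-31827787, plus strand), of the constitutive HSPA8 (chr11:123062087-123062386, minus strand) and of its J-protein partner DNAJA1 (chr9:33025023-33025322, plus strand), with matched units in capitals.
HSPA1A: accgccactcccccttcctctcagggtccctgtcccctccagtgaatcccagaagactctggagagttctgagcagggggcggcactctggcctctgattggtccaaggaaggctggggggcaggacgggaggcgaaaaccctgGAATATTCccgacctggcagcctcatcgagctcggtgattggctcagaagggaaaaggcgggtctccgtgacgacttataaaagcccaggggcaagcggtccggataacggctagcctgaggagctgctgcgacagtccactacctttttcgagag
HSPA1B: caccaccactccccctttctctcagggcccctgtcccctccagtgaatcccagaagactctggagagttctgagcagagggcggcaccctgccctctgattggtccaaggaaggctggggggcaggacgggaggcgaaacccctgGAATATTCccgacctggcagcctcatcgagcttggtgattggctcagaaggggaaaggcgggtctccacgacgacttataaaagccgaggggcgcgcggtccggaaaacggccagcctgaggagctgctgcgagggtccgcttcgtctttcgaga
HSPA8: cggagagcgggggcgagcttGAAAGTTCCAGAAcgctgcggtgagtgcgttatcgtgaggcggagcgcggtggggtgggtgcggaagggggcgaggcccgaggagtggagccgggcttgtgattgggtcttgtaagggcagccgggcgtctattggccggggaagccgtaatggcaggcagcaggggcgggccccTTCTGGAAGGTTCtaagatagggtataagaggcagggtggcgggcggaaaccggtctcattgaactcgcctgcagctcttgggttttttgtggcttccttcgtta
DNAJA1: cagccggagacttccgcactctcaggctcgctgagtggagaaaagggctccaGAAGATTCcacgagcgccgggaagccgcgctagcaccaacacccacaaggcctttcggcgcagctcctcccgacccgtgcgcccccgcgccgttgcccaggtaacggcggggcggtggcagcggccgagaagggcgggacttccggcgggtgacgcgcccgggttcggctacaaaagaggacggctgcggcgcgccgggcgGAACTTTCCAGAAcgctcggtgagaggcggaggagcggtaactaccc
The HSPA1A and HSPA1B promoters were identical at 277 of 301 aligned positions, 92.0%, and carry the same pair of units. HSPA8 and DNAJA1 carry runs of 3 units.

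Before any comparison, the family was already expressed at very different levels. On the deposited FPKM scale, which is per length, 10 members reached 100 FPKM or more in the control library, 23 lay between 10 and 100 FPKM, 19 between 1 and 10 FPKM and 10 under 1 FPKM. HSP90AB1, the constitutive HSP90, was the most abundant, with 819 and 777 FPKM in the libraries labelled KMT2D shRNA and 798 FPKM in the control. HSP90AA1, the inducible HSP90, had 641 and 618 FPKM in the labelled libraries and 530.4 FPKM in the control. Close to it stood HSPA8, with 639 and 585 FPKM in the labelled libraries and 509 FPKM in the control. Together the 62 members took 1.05% and 0.997% of counts in the labelled libraries and 0.979% in the control. The HSP90 pair alone took 0.439% and 0.418% in the labelled libraries and 0.391% in the control, and the 41 J-protein genes 0.238% and 0.233% in the labelled libraries and 0.259% in the control.

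The comparison asks which chaperone genes differ in cells given KMT2D shRNA. Of the 56 members with enough counts to test, 15 passed (edgeR, adjusted p under 0.05): 6 were higher and 9 lower in the libraries labelled KMT2D shRNA. That is 26.8% of the members tested, beside 31.1% of all 14016 genes tested (16.5% higher and 14.5% lower), so the family's share was not above the background. The higher genes were HSPA4L, DNAJB14, DNAJC13, HSPA2, DNAJC18 and HSPH1. The lower genes were DNAJC25, DNAJC1, DNAJB2, DNAJC19, DNAJA1, HSPB1, DNAJC4, DNAJB11 and HSPA1B. The members' median log2 fold change was 0.004, against -0.006 over all genes tested. Both labelled libraries lay above the control for 23 members (41.1%, beside 41.5% of all genes) and below it for 24 (42.9%, beside 42.8%). Both libraries are set against the same single control, whose own spread was not measured, and fewer cells of a kind and less RNA per cell cannot be told apart in bulk RNA.

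**Figure D1:**
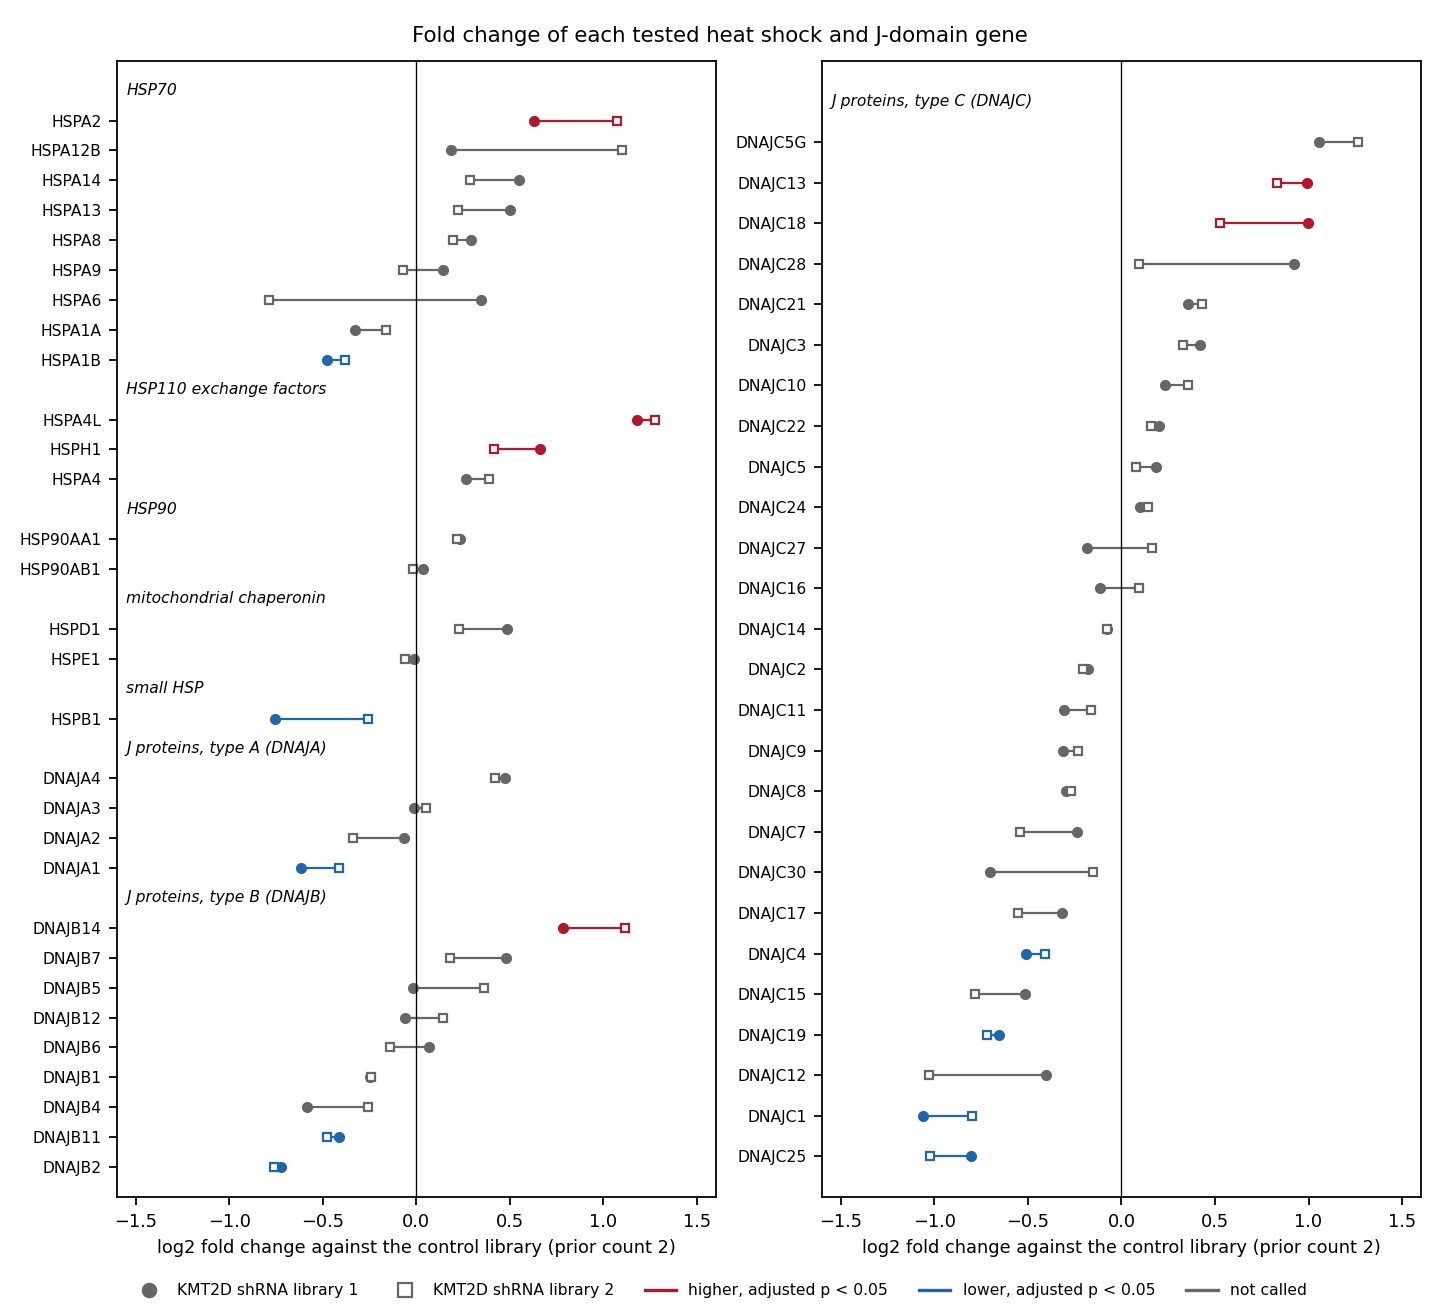
Log2 fold change (x axis) of each of the 56 tested members (rows, by class) against the control library, with filled circles for KMT2D shRNA library 1 and open squares for library 2. Members past the threshold are red (6 higher) or blue (9 lower), and the 3 HSP110 genes lie to the right of 0 while DNAJB2 and DNAJC1 lie to the left.

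Fold change followed transcript length in these libraries, and the members shared this. The Spearman correlation of log2 fold change with transcript length was 0.524 across the 56 tested members (0.460 in library 1 and 0.551 in library 2), and 0.467 across all genes tested. It is a description across genes that share the same libraries. Of 7 members shorter than 1500 bases, none passed as higher and 3 as lower, with a median log2 fold change of -0.46. Between 1500 and 2500 bases, none of 19 passed as higher and 5 as lower, and the median was -0.24. Among 21 members of 2500 to 4000 bases, 4 passed as higher and 1 as lower, with a median of 0.04. Of the 9 longest, 2 passed as higher and none as lower, and the median was 0.37. Over all genes the medians of the same length classes were -0.45, -0.20, 0.02 and 0.36. From the shortest class to the longest, 2.57%, 4.84%, 12.9% and 35.4% of all genes passed as higher, and 36.9%, 19.7%, 10.2% and 4.10% as lower.

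With the length trend removed by an offset per library, 4 members passed, HSPA4L and DNAJB14 as higher and DNAJB2 and DNAJC1 as lower. This is 7.14% of members, beside 12.9% of all genes (5.99% higher and 6.92% lower). That fit also estimated the spread of single genes less firmly. With 1 trend between the groups removed in its place, which keeps the spread between the labelled libraries, 4 members passed as higher and 2 as lower, beside 19.1% of all genes (8.99% higher and 10.1% lower): the 4 just named, with HSPA2 and HSPD1 as higher. Removal of a GC trend as well as the length trend per library left 3, HSPA4L and HSPA2 as higher and DNAJC1 as lower, beside 13.3% of all genes (7.31% higher and 5.95% lower). The cause of the length trend was not tested. The direction of 7 of the 56 tested members turned with the trend removed per library.

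**Figure D2:**
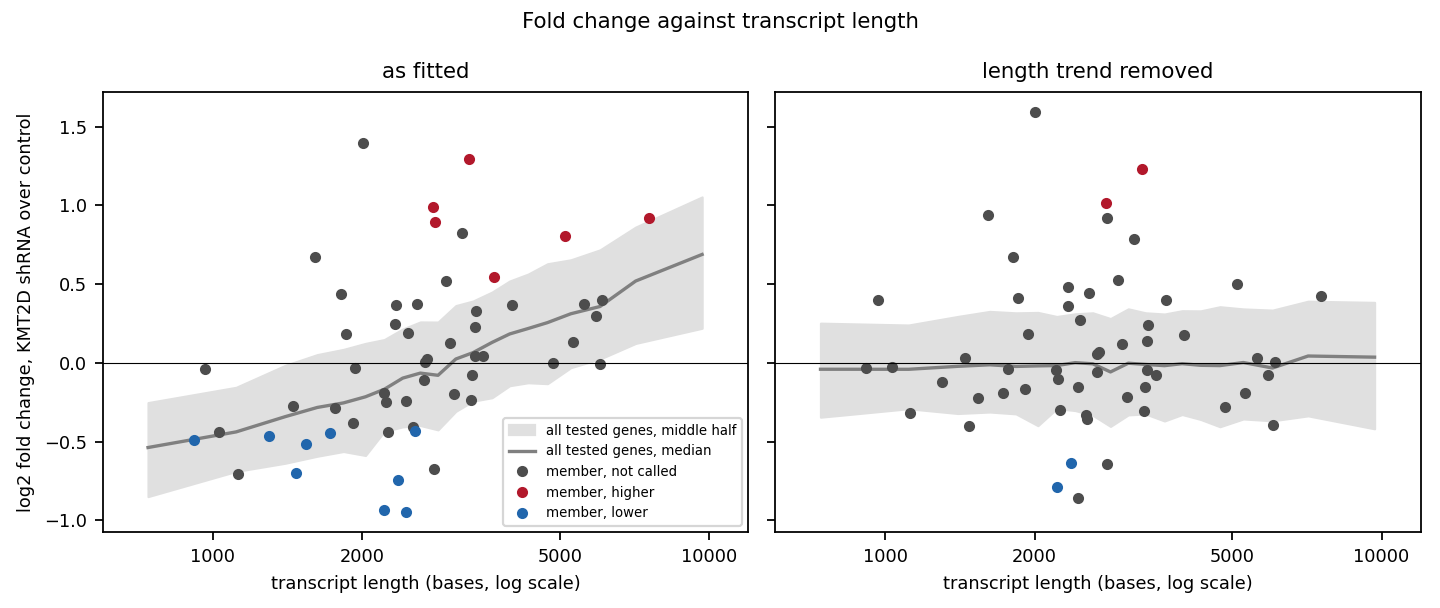
Log2 fold change (y axis, KMT2D shRNA over control) against transcript length (x axis, bases, log scale) for the 56 tested members (points), as fitted on the left and with the length trend removed per library on the right. The line is the median over all tested genes in classes of length and the band runs from their lower to their upper quartile; calls fall from 15 on the left to 4 on the right.

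The HSP110 proteins swap ADP for ATP on HSP70 and keep aggregating proteins soluble. Of their 3 genes 2 passed as higher, beside 16.5% of all genes tested. All 3 lay above the control in both labelled libraries, beside 41.5% of all genes. HSPA4L, best known from testis, had 9.94 and 10.6 CPM in the libraries labelled KMT2D shRNA, against 4.18 CPM in the control. Both labelled libraries exceed the control by more than they differ from each other (log2 fold change 1.30, SE 0.38, adjusted p = 0.00677 in edgeR), on 52, 54 and 23 counts. HSPH1 (HSP105), the stress-inducible member, had 195 and 164 CPM in the labelled libraries, against 123 CPM in the control. Its log2 fold change was 0.55 (SE 0.18, adjusted p = 0.0157 in edgeR), and 0.40 with the length trend removed, which did not pass (adjusted p = 0.163 in edgeR). The constitutive HSPA4 had 132 and 144 CPM in the labelled libraries, against 110.1 CPM in the control, a log2 difference of 0.33 that missed the threshold (SE 0.18, adjusted p = 0.152 in edgeR).

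Among the HSP70 genes 1 was higher and 1 lower of 9 tested, beside 16.5% and 14.5% of all genes. HSPA2, an HSP70 that developing sperm require in mice, had 15.1 and 20.7 CPM in the libraries labelled KMT2D shRNA, against 9.63 CPM in the control. It was higher in both (log2 fold change 0.89, SE 0.28, adjusted p = 0.0133 in edgeR), while with the length trend removed per library the log2 fold change of 0.92 had an adjusted p of 0.0552 in edgeR. HSPA1B, an inducible HSP70, had 182 and 194 CPM in the labelled libraries and 253 CPM in the control, a log2 fold change of -0.43 (SE 0.17, adjusted p = 0.0439 in edgeR). The call of HSPA1B ended with the length trend removed (-0.36, adjusted p = 0.174 in edgeR). Its twin HSPA1A had 252 and 282 CPM in the labelled libraries and 316 CPM in the control, with a log2 difference of -0.24 that did not pass (adjusted p = 0.277 in edgeR). The coding sequences are nearly identical and the estimated counts of both genes are not whole, so the split of reads between them is uncertain. Summed, the pair had 433 and 476 CPM in the labelled libraries and 569 CPM in the control, and the log2 difference of -0.32 did not pass (SE 0.16, adjusted p = 0.122 in edgeR).

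HSPA8, the constitutive HSP70 that also uncoats clathrin vesicles, had 1468 and 1376 CPM in the libraries labelled KMT2D shRNA, against 1199.9 CPM in the control. The log2 difference of 0.25 missed the threshold (SE 0.15, adjusted p = 0.228 in edgeR). Within a library, which needs no scaling between libraries, the ratio of HSPA8 to HSPA1A plus HSPA1B counts was 3.39 (95% interval 3.23 to 3.55) and 2.89 (2.76 to 3.03) in the labelled libraries, against 2.11 (2.02 to 2.20) in the control. The intervals are exact binomial ones and cover counting error only. They do not overlap between the labelled libraries and the control, nor between the 2 labelled libraries themselves. A difference of this ratio between the groups was not tested. The ratio is not corrected for length or GC content, which is 45.7% for HSPA8, 59.7% for HSPA1A and 58.7% for HSPA1B. With length and GC trends removed the log2 differences were 0.33 for HSPA8, 0.02 for HSPA1A and -0.19 for HSPA1B, and none passed. HSPA6, a strictly inducible HSP70, had 16.1 and 7.10 CPM in the labelled libraries, on either side of the 12.5 CPM of the control. Its level was 2.26 times as high in library 1 as in library 2 (exact interval 1.51 to 3.44, counting error only). Its reads can be shared with the near copy HSPA7. HSPA13 and HSPA14 had log2 differences of 0.37 and 0.44 that did not pass (adjusted p = 0.115 and 0.217 in edgeR).

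**Figure D3:**
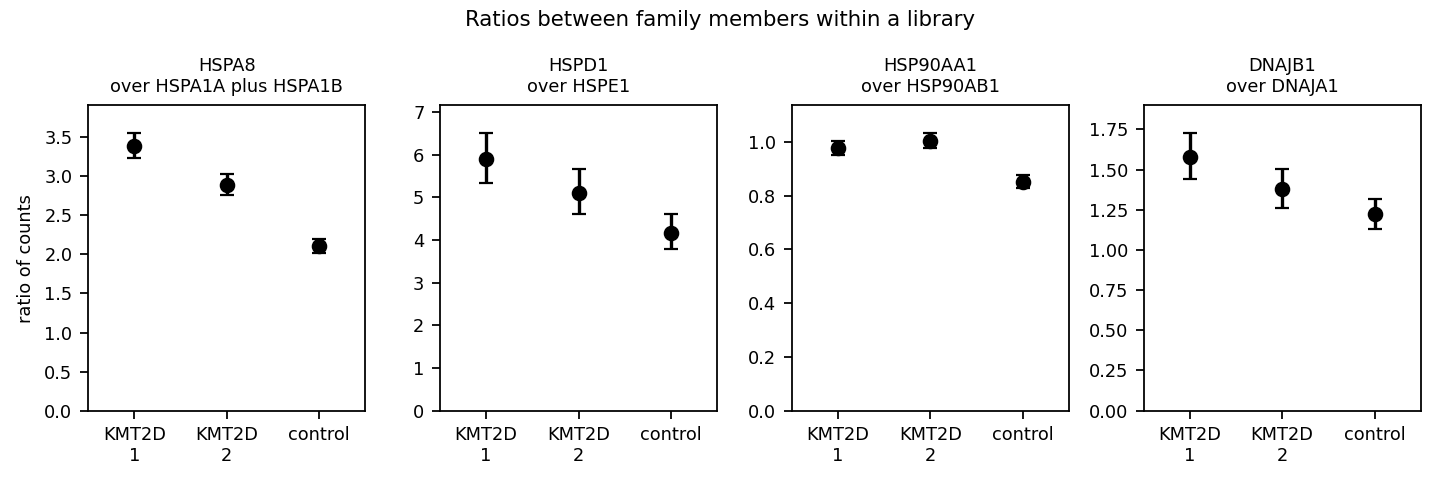
Ratio of the estimated counts of a pair of members within a library (y axis, from 0) in KMT2D shRNA library 1, KMT2D shRNA library 2 and the control library (x axis), with exact 95% binomial intervals that cover counting error only. HSPA8 over HSPA1A plus HSPA1B is 3.39 and 2.89 in the labelled libraries and 2.11 in the control. HSPD1 over HSPE1 is 5.89 and 5.10 in the labelled libraries and 4.17 in the control. No ratio is corrected for the unequal length or GC content of the genes.

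Neither HSP90 gene passed. HSP90AA1 had 2139 and 2113 CPM in the libraries labelled KMT2D shRNA, against 1817 CPM in the control, a log2 difference of 0.23 (SE 0.15, adjusted p = 0.250 in edgeR). HSP90AB1 had 2187 and 2104 CPM in the labelled libraries and 2133 CPM in the control, with a log2 difference of 0.01 (SE 0.14, adjusted p = 0.974 in edgeR). The control thus lay between the labelled libraries for HSP90AB1 and below both for HSP90AA1. The inducible form stood at 0.978 (exact 95% interval 0.953 to 1.00) and 1.00 (0.978 to 1.03) of the constitutive one in the labelled libraries. In the control it stood at 0.852 (0.830 to 0.875). This ratio of counts is not corrected for length. With the length trend removed the log2 differences of HSP90AA1 and HSP90AB1 were 0.14 and 0.06, and neither passed.

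The mitochondrial chaperonin is a barrel of HSPD1 (HSP60) with a lid of HSPE1 (HSP10), and the 2 genes lie head to head: 204 of the 300 bases of their promoter windows are shared. HSPD1 had 537 and 449 CPM in the libraries labelled KMT2D shRNA, against 383 CPM in the control, a log2 difference of 0.36 that missed the threshold (SE 0.17, adjusted p = 0.0941 in edgeR). With the length trend removed per library the value of 0.48 did not pass either (adjusted p = 0.0967 in edgeR). It passed at 0.48 only with 1 length trend between the groups removed, a setting added after seeing the data (adjusted p = 0.0378 in edgeR). HSPE1 had 91.2 and 88.1 CPM in the labelled libraries and 91.9 CPM in the control, a log2 difference of -0.04 (adjusted p = 0.902 in edgeR). The transcript of HSPE1 has 965 bases, and its log2 difference turned to 0.40 with the length trend removed (adjusted p = 0.142 in edgeR). Counts of HSPD1 were 5.89 (exact 95% interval 5.34 to 6.50) and 5.10 (4.61 to 5.66) times those of HSPE1 in the labelled libraries, against 4.17 (3.78 to 4.60) in the control. This ratio is not corrected for length, and with the length trend removed the log2 differences of HSPD1 and HSPE1 were close, at 0.48 and 0.40. HSPE1 reads can be shared with the read-through gene HSPE1-MOB4. HSPA9 (mortalin), the mitochondrial HSP70 that pulls proteins through the import channel, had 349 and 300.5 CPM in the labelled libraries and 316 CPM in the control, and no difference was called (log2 0.04, adjusted p = 0.885 in edgeR; -0.07 with the length trend removed). Of all 9 mitochondrial members 2 passed, DNAJC19 and DNAJC4, both lower, beside 14.5% of all genes tested that passed as lower. The median log2 fold change of the 9 was -0.23. With the length trend removed 0 of the 9 passed, beside 12.9% of all genes, and their median was -0.12.

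HSPB1 (HSP27), a small heat shock protein that holds unfolding proteins and binds actin filaments, was the only tested small heat shock gene. It had 239 and 337 CPM in the libraries labelled KMT2D shRNA, against 404 CPM in the control. Both labelled libraries are lower, yet they also differ from each other, library 1 being at 0.710 of library 2 (exact interval 0.660 to 0.764, counting error only). The log2 fold change of HSPB1 was -0.75 in library 1 alone, -0.26 in library 2 alone and -0.49 over both (SE 0.17, adjusted p = 0.0280 in edgeR). Its transcript of 914 bases is the shortest among tested members, and with the length trend removed the log2 difference was -0.03 (adjusted p = 0.944 in edgeR). HSPB6 and HSPB8 were too low to test.

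Of 39 J-protein genes tested 7 passed as lower and 3 as higher, 17.9% and 7.69%, beside 14.5% and 16.5% of all genes, and they had a median log2 fold change of -0.08. With the length trend removed 2 were lower and 1 higher, beside 6.92% and 5.99% of all genes. Type A and type B proteins are the classical partners of HSP70 that bind clients themselves. DNAJA1, a farnesylated cytosolic partner of HSPA8, had 150.2 and 173 CPM in the libraries labelled KMT2D shRNA, against 230.5 CPM in the control. It was lower in both (log2 fold change -0.51, SE 0.17, adjusted p = 0.0167 in edgeR), and with the length trend removed the value was -0.23 and did not pass (adjusted p = 0.416 in edgeR). DNAJB1 (HSP40), the stress-inducible partner, had 237 and 238 CPM in the labelled libraries and 281 CPM in the control, a log2 difference of -0.25 that did not pass (adjusted p = 0.272 in edgeR). Counts of DNAJB1 were 1.58 (exact 95% interval 1.44 to 1.73) and 1.38 (1.26 to 1.50) times those of DNAJA1 in the labelled libraries, against 1.22 (1.13 to 1.32) in the control. The interval of library 2 overlaps that of the control. This ratio is not corrected for length either. With the length trend removed the log2 difference was -0.10 for DNAJB1 and -0.23 for DNAJA1.

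DNAJB2, which carries ubiquitin-interacting motifs and passes clients to the proteasome, had 76.8 and 74.9 CPM in the libraries labelled KMT2D shRNA, against 127 CPM in the control. The labelled libraries nearly coincide, and the log2 fold change was -0.74 (SE 0.17, adjusted p = 0.000641 in edgeR), or -0.64 without the length trend (adjusted p = 0.0275 in edgeR). DNAJB14, an ER membrane protein whose J domain faces the cytosol, had 14.3 and 18.1 CPM in the labelled libraries and 8.17 CPM in the control. Its log2 fold change of 0.99 (SE 0.30, adjusted p = 0.00934 in edgeR) was 1.02 without the length trend (adjusted p = 0.0391 in edgeR). DNAJB11 (ERdj3), a secreted and ER-lumenal partner of the ER HSP70, had 131.5 and 126 CPM in the labelled libraries and 175 CPM in the control. It passed as lower with a log2 fold change of -0.45 (SE 0.17, adjusted p = 0.0393 in edgeR), and did not pass without the length trend (-0.19, adjusted p = 0.471 in edgeR). DNAJB6, which suppresses polyglutamine aggregation, was near 0 (log2 -0.03, adjusted p = 0.914 in edgeR), and at 0.18 with the length trend removed, which did not pass either.

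Type C proteins share only the J domain, and each recruits HSP70 to a particular place or client. DNAJC1, an ER membrane protein that reaches the ribosome, had 18.5 and 22.3 CPM in the libraries labelled KMT2D shRNA, against 39.1 CPM in the control. Both labelled libraries are near the same level (log2 fold change -0.94, SE 0.21, adjusted p = 0.000535 in edgeR), and the call held without the length trend (-0.79, adjusted p = 0.0280 in edgeR). DNAJC13 (RME-8), which acts on endosomes with the retromer machinery, had 98.1 and 87.7 CPM in the labelled libraries, against 49.0 CPM in the control. Its log2 fold change was 0.92 (SE 0.19, adjusted p = 0.000139 in edgeR). The transcript of 7551 bases is the longest among tested members, and without the length trend the log2 difference was 0.42 and did not pass (adjusted p = 0.139 in edgeR).

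DNAJC19, a regulator of the import motor at the inner mitochondrial membrane, had 20.8 and 19.9 CPM in the libraries labelled KMT2D shRNA, against 33.1 CPM in the control (log2 fold change -0.70, SE 0.21, adjusted p = 0.00978 in edgeR). DNAJC4 had 42.6 and 45.7 CPM in the labelled libraries and 60.8 CPM in the control (log2 fold change -0.46, SE 0.18, adjusted p = 0.0488 in edgeR). Neither passed without the length trend, at -0.40 for DNAJC19 and -0.12 for DNAJC4 (adjusted p = 0.201 and 0.678 in edgeR). DNAJC25 had 6.50 and 5.52 CPM in the labelled libraries and 11.6 CPM in the control, a log2 fold change of -0.95 (SE 0.33, adjusted p = 0.0262 in edgeR). Its estimated counts are not whole, and reads can be shared with the read-through gene DNAJC25-GNG10. DNAJC18, an ER membrane protein, had 18.2 and 13.0 CPM in the labelled libraries and 8.90 CPM in the control, a log2 fold change of 1.00 in library 1 alone, 0.53 in library 2 alone and 0.81 over both (SE 0.30, adjusted p = 0.0349 in edgeR). For DNAJC25 and DNAJC18 the values without the length trend were -0.86 and 0.50, and neither passed (adjusted p = 0.0929 and 0.282 in edgeR). In all, the 11 ER members had 2 higher and 3 lower calls, beside 16.5% and 14.5% of all genes tested. With the length trend removed they had 1 higher and 1 lower call, beside 5.99% and 6.92% of all genes.

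**Figure D4:**
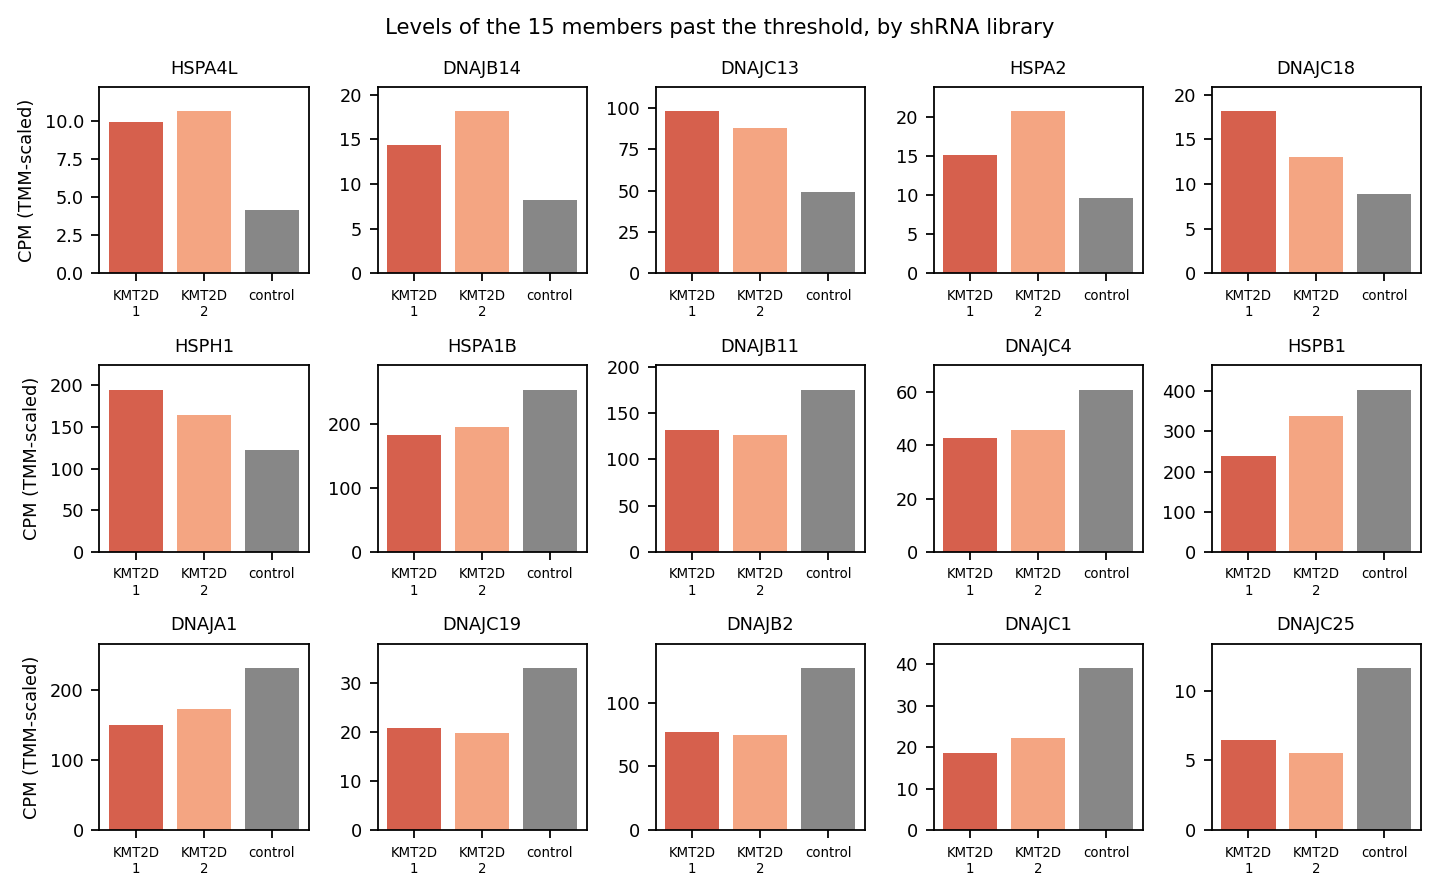
Level of each of the 15 members past the threshold (y axis, TMM-scaled CPM, from 0, with its own scale per gene) in KMT2D shRNA library 1, KMT2D shRNA library 2 and the control library (x axis). Bars are single libraries, so no error bar is drawn, and in every panel both labelled libraries lie on the same side of the control.

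The other 41 tested members did not pass, with log2 differences from -0.70 (DNAJC12) to 1.40 (DNAJC5G) and a smallest adjusted p of 0.0848 in edgeR. DNAJC5G, a low gene, had 2.68 and 3.15 CPM in the libraries labelled KMT2D shRNA and 1.09 CPM in the control. Members with no call included DNAJC5 (cysteine string protein, of synaptic and secretory vesicles), DNAJC9 (a histone chaperone) and DNAJC8 (a splicing-associated protein). DNAJC10 and DNAJC3 (ER-lumenal cochaperones) had no call either. The log2 differences were 0.13 for DNAJC5, -0.27 for DNAJC9, -0.28 for DNAJC8, 0.30 for DNAJC10 and 0.38 for DNAJC3. With the length trend removed the sign turned for DNAJC5 (-0.19), DNAJC9 (0.03) and DNAJC10 (-0.08), and DNAJC3 came to 0.03 and DNAJC8 to -0.04. Not tested were HSPA12A, HSPA1L, HSPB6, HSPB8, DNAJB13 and DNAJC6. DNAJC6 (auxilin) had 9 and 6 counts in the labelled libraries and 1 count in the control, and HSPA12A had 7 and 1 counts in the labelled libraries and 0 in the control, which allows up to 3 counts. The labelled libraries also differed from each other beyond counting error for 17 of the 56 members, 30.4%, beside 23.2% of all genes tested by the same exact interval. Of the 56, 11 were higher in library 1 by this interval and 6 lower, beside 11.1% and 12.1% of all genes tested. Such an interval is narrower at high counts, and members were not matched to all genes on counts.

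Genes around the chaperones were read from lists of cochaperones and other folding machines. Counts of calls on these lists stand beside 16.5% higher and 14.5% lower of all genes tested. Among 11 HSP70 cochaperones 1 was higher and 3 lower. BAG3, an HSF1-responsive exchange factor that links HSP70 to selective autophagy, had 347 and 283 CPM in the libraries labelled KMT2D shRNA, against 164 CPM in the control (log2 fold change 0.94, SE 0.18, adjusted p = 5.92e-05 in edgeR). BAG1, its proteasome-linked relative, had 30.0 and 29.2 CPM in the labelled libraries and 54.5 CPM in the control (log2 fold change -0.88, SE 0.19, adjusted p = 0.000426 in edgeR). Both calls held without the length trend, at 1.00 for BAG3 and -1.06 for BAG1 (adjusted p = 0.00635 and 0.00350 in edgeR). GRPEL1, the exchange factor of mitochondrial HSP70, and STUB1 (CHIP), the ubiquitin ligase that docks on HSP70 and HSP90, were lower as fitted (-0.68 and -0.50, adjusted p = 0.00220 and 0.0224 in edgeR) and did not pass without the trend.

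Of the 14 HSP90 cochaperones FKBP5 was higher (0.72, adjusted p = 0.0136 in edgeR) and NUDC lower (-0.48, adjusted p = 0.0227 in edgeR). Neither passed without the length trend (0.43 for FKBP5 and -0.24 for NUDC, adjusted p = 0.210 and 0.350 in edgeR). Of the 8 subunits of the cytosolic chaperonin TRiC none passed in edgeR; CCT2 alone had an unadjusted p under 0.05 (0.41, adjusted p = 0.0698 in edgeR), and it was called higher without the length trend (0.61, adjusted p = 0.0380 in edgeR). The prefoldin subunits PFDN2 and PFDN5, 2 of 6, were lower (-0.76 and -0.72, adjusted p = 0.000856 and 0.000741 in edgeR), and did not pass without the length trend. Of 4 tested genes for heat shock factors and their binding protein, HSBP1 was lower (-0.50, adjusted p = 0.0230 in edgeR), and it did not pass without the length trend (-0.30, adjusted p = 0.261 in edgeR). HSF1 itself had 150.0 and 149 CPM in the labelled libraries and 177 CPM in the control, a log2 difference of -0.25 that did not pass (adjusted p = 0.280 in edgeR). Of the ER chaperones that the rule leaves out, DNAJB9 was lower (-0.67, adjusted p = 0.0166 in edgeR), and it did not pass without the length trend (-0.60, adjusted p = 0.0909 in edgeR). HSPA5 (BiP) had a log2 difference of -0.35 that did not pass (adjusted p = 0.0727 in edgeR), and -0.54 without the length trend, which did (adjusted p = 0.0371 in edgeR).

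**Figure D5:**
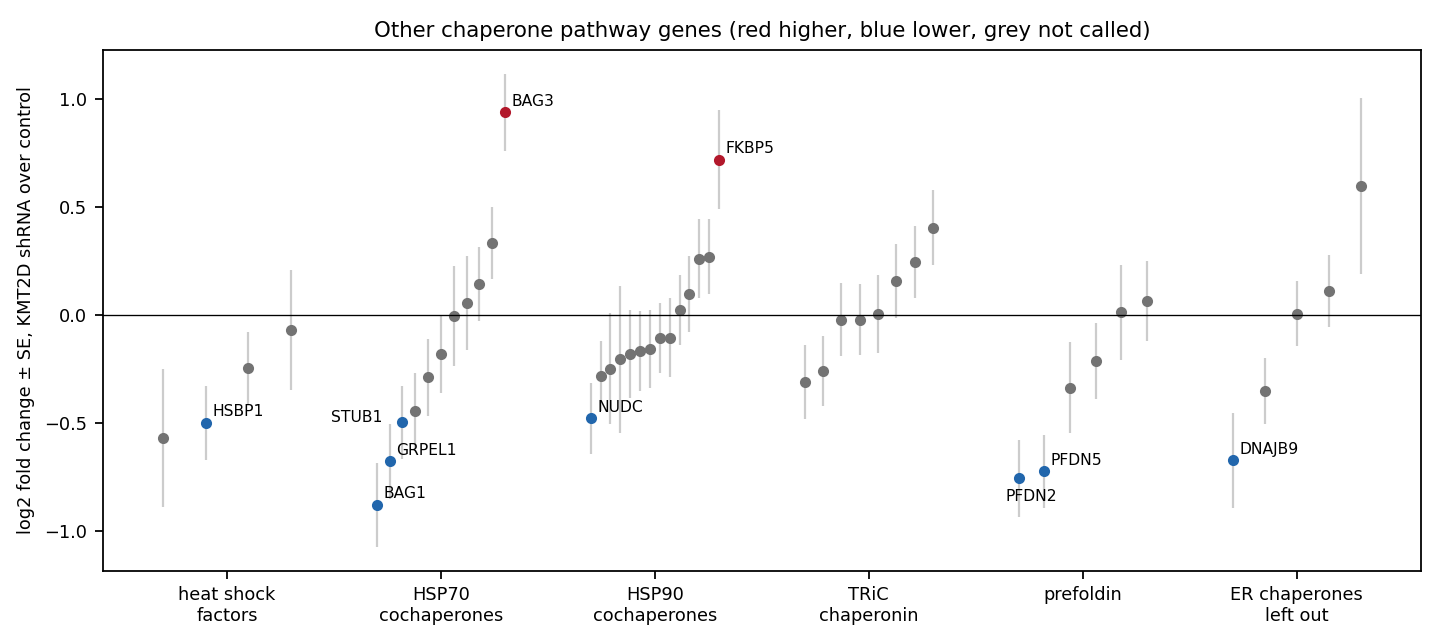
Log2 fold change (y axis, KMT2D shRNA over control, with SE as a line) of other chaperone pathway genes by list (x axis). Red BAG3 and FKBP5 were higher, and named blue genes lower, with BAG1 at -0.88.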

How the data were processed

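Per the file headers, the authors deposited for each library an expected count (an estimated count of reads per gene, not normalized) and an FPKM value (scaled by transcript length and library total) for each gene, with its Entrez identifier and transcript length. Per the submitters' processing notes, HISAT, Bowtie2 and hg19 were used; roles, versions and the counting tool: not given in the sources used here. No strand-marking step is named in the labels' protocols, so reads of overlapping or antisense genes cannot be told apart. A gene not listed in a library was taken as 0.

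Tables were joined on the Entrez identifier and named from RefSeq (GRCh38.p14): 18214 of 18331 identifiers matched directly and 28 through a transcript. Coordinates and promoters are of that assembly. Members and lists were chosen with earlier results of these data known. Named were the canonical chaperones, every member past the threshold, up to 4 members per direction ranked on whichever labelled library moved less, the lowest members by name, KMT2D, and list genes past the threshold; DNAJC5G, DNAJC12, HSPA6, HSPA13, HSPA14, DNAJB6, DNAJC3, DNAJC5, DNAJC8, DNAJC9, DNAJC10, DNAJC6, HSPA12A, HSPA5, CCT2 and HSF1 were named after their values were seen.

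Estimated counts were rounded to whole numbers and fitted over all 14016 genes that passed filterByExpr with edgeR 4.0.16 in R 4.3.3 (TMM scaling, quasi-likelihood F test, group alone, Benjamini-Hochberg adjusted, threshold 0.05). Only 1 residual degree of freedom exists, the control has no replicate, and p-values measure the spread between these libraries, which may be technical. The F statistic gave the SE. For single libraries, log2 values carry a prior count of 2. Alternatives were DESeq2 1.42.0, limma 3.58.1 on log2(FPKM + 0.5) and log2(FPKM + 0.1), other scalings and filters, and loess offsets (span 0.3) for length and GC content. Of the members, 21 have an estimated count that is not whole in some library. Intervals cover counting error only, since PCR reads without molecular identifiers are not independent molecules. Protein features were not used here.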

Additional observations from a re-analysis of the deposited data

How the results depend on the processing

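Against 6 higher members, 1 passed with no filter on low counts, 2 with the length trend removed, 2 with length and GC trends removed, 1 by DESeq2, and 0 by limma at either pseudocount. Against 9 lower members, 4 passed with scaling by library totals, 2 with no filter, 2 with the length trend removed, 2 with 1 length trend between the groups removed (added after seeing the data), 1 with length and GC trends removed, 0 by DESeq2, and 1 by limma at either pseudocount. Over all genes, the shares called higher and lower were 16.5% and 14.5% in the reported fit, 13.2% and 9.96% with library totals, 5.74% and 4.65% with no filter, 5.32% and 3.25% by DESeq2, 4.82% and 5.10% by limma at pseudocount 0.5 and 3.86% and 3.76% at 0.1. At an unadjusted p of 0.05, limma counted 14 members at each pseudocount (25.0%, beside 33.9% and 33.5% of all genes), DESeq2 5 (8.93%, beside 18.0%) and edgeR 19 (33.9%, beside 40.7%). The median log2 fold change of 0.004 was -0.043 among members of at least 5 CPM, -0.028 with the length trend removed, -0.029 with 1 trend between the groups removed and 0.040 with length and GC trends removed. Leaving out a labelled library gave medians from -0.011 to 0.017, with no test. DNAJB2 passed under 8 of 10 alternatives, DNAJC1 under 7 of 10 and HSPA4L under 6 of 9. DNAJB14, DNAJC13 and HSPA2 passed under 5 of 10, and DNAJA1, DNAJC19 and HSPH1 under 3 of 10. DNAJB11 and HSPA1B passed under 2 of 10, DNAJC25 under 2 of 9, DNAJC18 and HSPB1 under 1 of 10 and DNAJC4 under 0 of 10. DESeq2 gave no adjusted p for HSPA4L and DNAJC25.

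Among the canonical and called members, directions turned for DNAJC4 (0.13), HSPB1 (0.22) and HSPA1A (0.024) with length and GC trends removed, for HSP90AB1 (-0.00073) among genes of at least 5 CPM, for HSPA9 (-0.074 with length, -0.073 with 1 trend, -0.11 with length and GC) and for HSPE1 (0.40 under each of these). Of other named members HSPA6 turned (0.12) with length and GC trends removed, as did DNAJB6 (0.15), DNAJC5 (-0.03), DNAJC9 (0.02) and DNAJC10 (-0.08), which also turned with the length trend alone removed. The estimated prior degrees of freedom moved with these settings, from 45.7 to 9.99 with the length trend removed, 8.32 with library totals and 4.93 with no filter, while 1 trend between the groups kept 45.7. What part this had in the lost calls was not tested. Summing HSPA1A and HSPA1B, also added after seeing the data, ended the call of HSPA1B. No paired analysis was possible because the control has 1 library and shares fewer than 2 numbers with the labelled libraries. At totals of 5123817 to 5559504 counts, 6 of the 62 members were too low to test.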
